A study of Mus musculus with 4 samples.

Results

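A set of 10 genes of triglyceride breakdown and of the lipid droplet surface were followed in fetal brown adipose tissue (BAT). They were taken by name: the lipases Pnpla2, Lipe and Mgll, the lipase regulators Abhd5 and G0s2, the perilipins Plin1, Plin2, Plin4 and Plin5, and the droplet fusion gene Cidec. All 10 were found among the 22298 genes counted, and all 10 passed the filter on low counts that left 12888 genes for the test. RNA-seq was performed on BAT of C57BL/6 fetuses (C57BL/6J in the methods of the study) at E18.5 whose dams were given either tap water (control) or water with 20% (w/v) fructose (fructose) during pregnancy, with 2 libraries per group. The number of fetuses and litters behind a library is not given in the sources used here, so the p-values measure the spread between these libraries, which may be technical.

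Brown adipocytes store triglyceride in many small droplets and break it down when they make heat. PNPLA2 (ATGL) removes the first fatty acid, LIPE (hormone-sensitive lipase) the next, and MGLL the last. ABHD5 activates PNPLA2 and G0S2 inhibits it. Perilipins coat the droplet and decide which lipases reach it, and CIDEC lets droplets fuse into larger ones. The fatty acids released feed the mitochondria and activate UCP1.

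The libraries held 18542897 to 23645147 counts on genes, and within each group the spread exceeded sampling noise (chi-square per degree of freedom 13.4 in control and 8.87 in fructose). All 4 libraries are labelled male. Summed over Uty, Kdm5d, Ddx3y and Eif2s3y, which are Y-linked, the control libraries held 422 and 390 counts and both fructose libraries 0, where a count of 0 allows up to 0.134 and 0.127 CPM (counts scaled to a common library total; the limit covers counting error only). The fructose libraries thus went against their label, and fetal sex and maternal fructose cannot be told apart in any comparison here. Mitochondrially encoded genes took 5.89% and 6.49% of the control counts and 10.8% and 11.2% of the fructose counts. Over all tested genes the log2 fold change fell with the GC content of the longest transcript (Spearman's rho -0.50). It rose with the length of the merged exons of the gene (rho 0.46). These are correlations across genes, and genes are no replicates. The tissue label was checked on marker genes. Of 9 brown-adipocyte markers none was at 0, and Ucp1 and Cidea led them, with 9610 to 12430 CPM for Ucp1 and 3238 to 3344 CPM for Cidea.

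Levels are given as CPM after TMM normalization, which scales each library by factors from 0.972 to 1.04. Differences were tested with the quasi-likelihood test of edgeR, as log2 of fructose over control. A gene was called when its Benjamini-Hochberg adjusted p-value, taken over every tested gene, was under 0.05. Among the 10 genes, Pnpla2, Lipe, G0s2, Plin5 and Cidec were lower in fructose, by 17% to 30%, and none was called higher. Mgll, Abhd5, Plin1, Plin2 and Plin4 were not called. Over all tested genes, 10.7% were called lower and 15.5% higher. At an unadjusted p-value under 0.05 the counts were also 5 lower and 0 higher, against 17.8% and 21.5% of all tested genes. DESeq2 gave 5 lower and 0 higher at its adjusted p-value under 0.05, against 8.33% and 10.8% of the 12638 genes it adjusted. The median log2 fold change of the 10 genes was -0.20, against 0.0025 over all tested genes. Both fructose libraries lay below both control libraries for 7 of the 10, where 31.6% of all tested genes did so, and above both for 1, where 33.4% did (8 of 10 in either direction, against 65.1%). The study applied its thresholds (p under 0.05 without adjustment, more than 1.3-fold) to DESeq2, and here they were applied to the edgeR fit. By these thresholds G0s2 and Plin5 were lower and none was higher, against 6.18% and 17.6% of all tested genes. In counts, the 10 genes together took 1.24% and 1.22% of the control libraries and 1.07% and 1.06% of the fructose libraries. In bulk tissue, fewer cells of a type and less RNA per cell cannot be told apart.

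**Figure D1:**
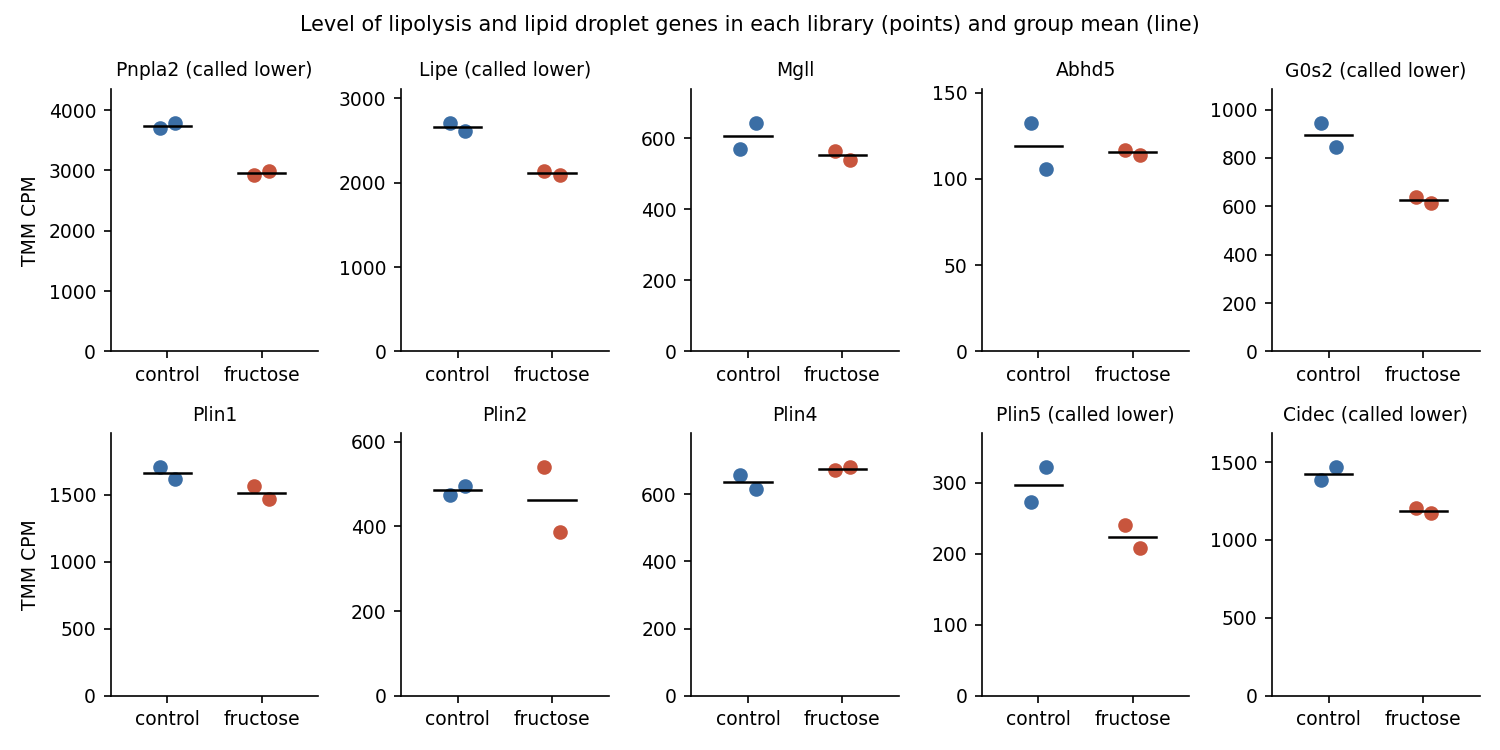
TMM CPM (vertical axis, from 0) of each of the 10 genes in the 2 control and 2 fructose libraries; points are libraries and the line is the group mean. Both fructose points lie below both control points for Pnpla2, Lipe, G0s2, Plin5 and Cidec, which were called, and for Mgll and Plin1, which were not. They lie above for Plin4, not called, while Abhd5 and Plin2 overlap between groups. Of all tested genes, 65.1% do not overlap.

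The regions before the start of 4 of these genes are printed because they show the pairs the results turn on: a lipase and its inhibitor that were both lower, and neighbouring perilipins of which 1 was lower. Each line holds the 250 bases before the RefSeq start (GRCm38.p6), 5′ to 3′ on the strand of the gene. Capitals mark GGGCGG (GC box), CCAAT and AGGTCA (a nuclear receptor core motif), each on either strand and with no overlap among the matches.
Pnpla2, chr7:141454938-141455187, plus strand: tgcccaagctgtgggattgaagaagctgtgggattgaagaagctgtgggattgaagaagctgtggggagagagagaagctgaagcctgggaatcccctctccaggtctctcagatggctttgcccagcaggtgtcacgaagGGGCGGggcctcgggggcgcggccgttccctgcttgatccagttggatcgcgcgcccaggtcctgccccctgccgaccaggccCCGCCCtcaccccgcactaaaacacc
G0s2, chr1:193273189-193273438, minus strand: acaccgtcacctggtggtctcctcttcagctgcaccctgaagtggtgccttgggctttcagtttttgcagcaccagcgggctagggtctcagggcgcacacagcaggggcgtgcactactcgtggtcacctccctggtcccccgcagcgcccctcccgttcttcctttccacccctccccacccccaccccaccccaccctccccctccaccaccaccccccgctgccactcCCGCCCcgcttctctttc
Plin4, chr17:56109783-56110032, minus strand: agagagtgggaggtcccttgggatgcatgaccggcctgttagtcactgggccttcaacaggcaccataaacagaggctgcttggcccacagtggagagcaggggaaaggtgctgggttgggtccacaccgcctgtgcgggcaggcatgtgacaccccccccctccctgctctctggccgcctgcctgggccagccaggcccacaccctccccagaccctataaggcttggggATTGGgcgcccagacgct
Plin5, chr17:56117549-56117798, minus strand: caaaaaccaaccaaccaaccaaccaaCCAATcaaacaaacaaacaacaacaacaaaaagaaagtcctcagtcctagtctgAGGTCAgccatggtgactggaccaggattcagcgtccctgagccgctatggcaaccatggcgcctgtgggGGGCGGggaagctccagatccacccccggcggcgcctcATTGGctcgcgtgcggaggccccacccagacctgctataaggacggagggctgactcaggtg
The windows of Pnpla2 and G0s2 held GC boxes and neither of the other motifs. That of Plin4 held 1 CCAAT and no GC box, and the printed window of Plin5 held all 3 motifs, with 2 CCAAT. RefSeq gives Plin5 another start, whose window directly downstream (chr17:56117299-56117548) held 2 GC boxes and neither of the other motifs. RefSeq gave 14 windows for the 10 genes, and GGGCGG was found in those of Pnpla2, Lipe, Mgll, Abhd5, G0s2 and Plin5, that is 7 of 14 windows against 32.7% of 32851 windows of all genes. CCAAT was found in 3 of 14 (33.8% of all windows) and AGGTCA in 3 of 14 (14.0% of all windows). The DR1 element of PPAR-RXR dimers, the last of these motifs in tandem with 1 base between, was in none of the 14 and in 0.0335% of all windows. The E-box CACGTG was in a window of Lipe and of Mgll (6.02% of all), and the cAMP response element TGACGTCA in none (1.55% of all). A match is a description of these letters only.

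Pnpla2 encodes the rate-limiting triglyceride lipase. It lies on chromosome 7 (141455198 to 141460743, plus strand, GRCm38) and had 3696 and 3783 CPM in control and 2925 and 2985 CPM in fructose. The groups were well apart, each with a narrow spread. The level fell by 21.0%, a log2 fold change of -0.34 (standard error 0.09, 95% interval -0.54 to -0.14, edgeR adjusted p = 0.017). With the length and GC content trends of each library removed it was -0.11 (edgeR adjusted p = 0.52), and without fructose replicate 1 or fructose replicate 2 the call was lost (edgeR adjusted p = 0.11 and 0.099).

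Lipe, the diglyceride lipase that adrenergic signalling phosphorylates, lies on chromosome 7 (25379527 to 25398710, minus strand). It was at 2706 and 2618 CPM in control and 2143 and 2087 CPM in fructose, again with no overlap. Its log2 fold change of -0.33 (standard error 0.09, 95% interval -0.53 to -0.14, edgeR adjusted p = 0.017) was close to that of Pnpla2. Lipe was the only one of the 10 genes that edgeR still called with both trends removed (-0.31, adjusted p = 0.049; 0.089 with the replicate block added). Its call was lost without fructose replicate 1 (edgeR adjusted p = 0.077) and without fructose replicate 2 (0.15). An antisense gene, 4732471J01Rik, overlaps 918 exon bases of Lipe and is not listed among the genes counted, and how the counting treated strand is not given in the sources used here.

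Mgll, the monoglyceride lipase at the end of the pathway, lies on chromosome 6 (88724412 to 88828360, plus strand). Its 571 and 643 CPM in control and 565 and 539 CPM in fructose did not overlap but nearly met. The log2 fold change was -0.14 (95% interval -0.33 to 0.058), which edgeR did not call (adjusted p = 0.28). It was -0.22 without control replicate 1 (edgeR adjusted p = 0.057) and -0.048 without control replicate 2 (0.75). In the reported fit the interval of Mgll overlapped that of Pnpla2 (-0.54 to -0.14). An antisense gene, Gm26588, overlaps 167 of its exon bases.

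In the reported fit the regulators of PNPLA2 showed different patterns. G0s2, the inhibitor, is a short gene on chromosome 1 (193272161 to 193273217, minus strand) with 871 exon bases. It had 944 and 846 CPM in control and 637 and 612 CPM in fructose, so that the higher fructose library stood well below the lower control library. It fell by 30.2%, the largest change among the 10 genes (log2 fold change -0.52, standard error 0.09, 95% interval -0.71 to -0.32, edgeR adjusted p = 0.0021). G0s2 was called without each library in turn, and also after removal of the GC content trend (-0.37, edgeR adjusted p = 0.016), but not with the gene length trend removed (-0.22, adjusted p = 0.097) or with both (-0.09, adjusted p = 0.57). Abhd5, the activator, lies on chromosome 9 (122351608 to 122381524, plus strand). Its 132 and 106 CPM in control bracketed the 117 and 114 CPM in fructose, and its log2 fold change of -0.05 was not called (95% interval -0.27 to 0.18, edgeR adjusted p = 0.77). The sign of Abhd5 turned when scaled by library size only (0.013) and without control replicate 1 (0.12), and without control replicate 2 it was -0.20. With the GC content trend removed Abhd5 was at -0.22, and with both trends removed at -0.24 (95% interval -0.45 to -0.021, edgeR adjusted p = 0.15). It was also the gene of the 10 with the lowest GC content, 45.7%, and A730085K08Rik, an antisense gene, overlaps 950 of its exon bases.

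Among the perilipins, Plin5 was lower and the others were not called. Plin1, the main droplet coat of adipocytes, lies on chromosome 7 (79720218 to 79732903, minus strand) and had 1704 and 1618 CPM in control, and 1567 and 1466 CPM in fructose. The groups did not overlap, but the gap between them was small beside the spread (log2 fold change -0.13, 95% interval -0.33 to 0.062, edgeR adjusted p = 0.30), and with the GC content trend removed the sign turned (0.028). Plin2, a coat protein found in many cell types, lies on chromosome 4 (86648386 to 86670060, minus strand) and was the most variable of the 10. Its fructose libraries, at 539 and 388 CPM, lay on either side of the control libraries at 475 and 495 CPM. The log2 fold change was -0.07 (95% interval -0.34 to 0.21, edgeR adjusted p = 0.74), and leaving out fructose replicate 1 gave -0.32, leaving out fructose replicate 2 gave 0.15.

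Plin4 and Plin5 lie side by side on the minus strand of chromosome 17, with 1797 bases between them. Plin4, a coat protein of adipocytes and muscle, (56100591 to 56109803) had 658 and 615 CPM in control and 672 and 680 CPM in fructose. It was the only gene of the 10 with a positive log2 fold change (0.09, 95% interval -0.10 to 0.27), not called by edgeR (adjusted p = 0.48) and at -0.0045 with the gene length trend removed. Without control replicate 1 it was 0.14 and without control replicate 2 it was 0.040. Plin5, which ties droplets to mitochondria in tissues that burn fat, (56111601 to 56117596) had 273 and 322 CPM in control and 240 and 208 CPM in fructose. It fell by 24.7% (log2 fold change -0.41, standard error 0.10, 95% interval -0.63 to -0.19, edgeR adjusted p = 0.013). The call was lost without fructose replicate 2 (edgeR adjusted p = 0.11) and with both trends removed (-0.09, adjusted p = 0.61). Plin5 had the highest GC content of the 10, 58.9%.

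Cidec, which drives droplet fusion, lies on chromosome 6 (113424634 to 113435760, minus strand) and had 1388 and 1466 CPM in the control libraries, against 1202 and 1170 CPM in fructose. It fell by 16.9%, the smallest of the called changes (log2 fold change -0.27, standard error 0.09, 95% interval -0.45 to -0.078, edgeR adjusted p = 0.040). The call of Cidec was the least stable of the 5. It was lost when scaled by library size only (-0.21, edgeR adjusted p = 0.079), with the replicate number as a block (-0.27, adjusted p = 0.065) and without control replicate 2, fructose replicate 1 or fructose replicate 2 (adjusted p = 0.055, 0.15 and 0.25). With both trends removed its sign turned (0.047).

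**Figure D2:**
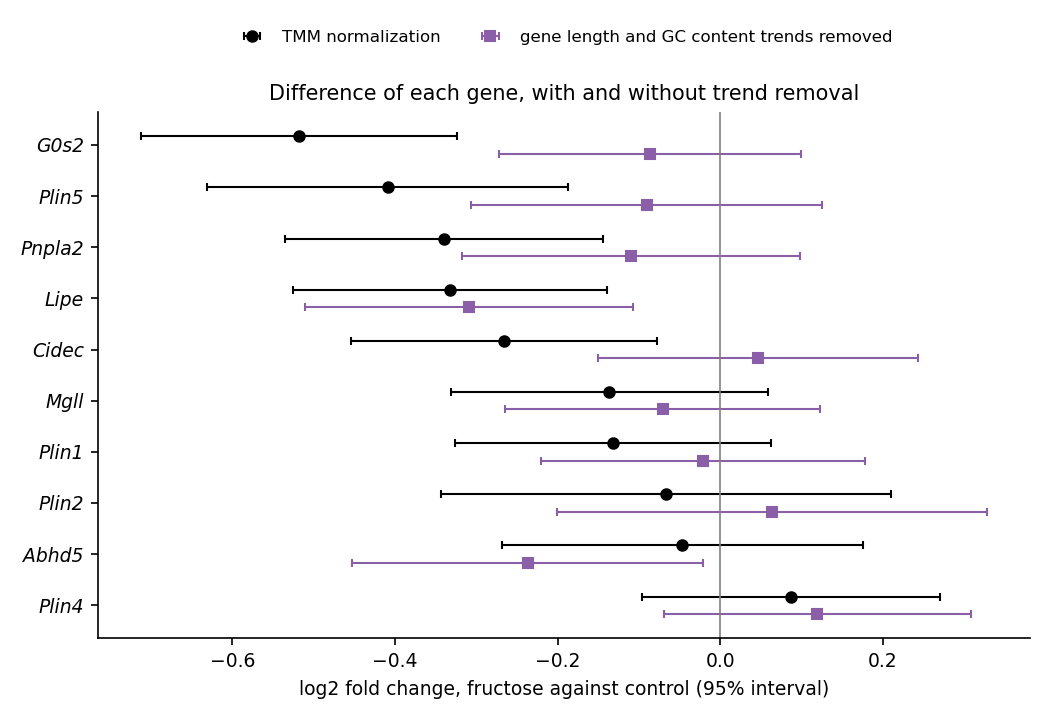
Log2 fold change of each gene (horizontal axis, fructose against control) with its 95% interval, from TMM normalization (black circles) and with the gene length and GC content trends of each library removed (purple squares). With TMM the intervals of G0s2, Plin5, Pnpla2, Lipe and Cidec lie below 0. With the trends removed the called gene is Lipe, and Abhd5, whose interval also lies below 0, has an edgeR adjusted p of 0.15.

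Of the 10 transcripts, 9 had a GC content above the median of all tested genes (50.0%), and the median over the 10 was 56.1%. With both trends removed, the median over the 10 genes was -0.079 on the log2 scale, with 1 call, where edgeR called 853 of 12888 genes lower and 700 higher. With only the length trend removed, Lipe was the 1 gene called (-0.43, edgeR adjusted p = 0.0068), and with only the GC content trend removed it was G0s2. The part of the GC content of the transcripts and the exon length of the genes in these differences was not tested beyond this removal.

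**Figure D3:**
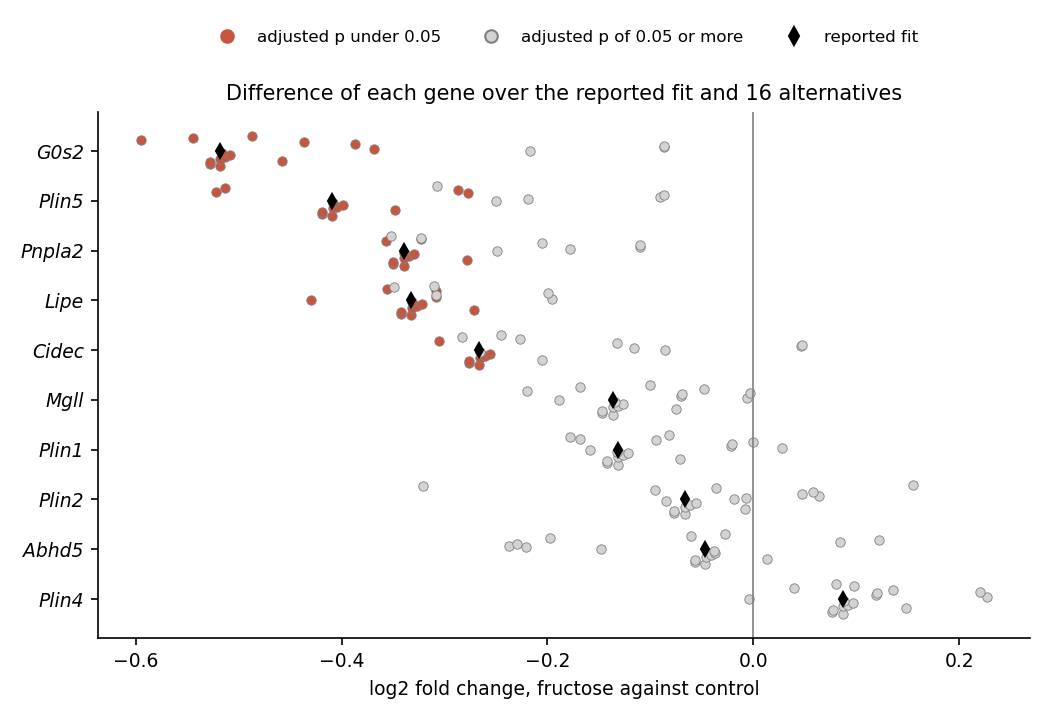
Log2 fold change of each gene (horizontal axis) in the reported fit (black diamond) and in 16 alternative fits (orange-red, adjusted p under 0.05; grey, not). Pnpla2, Lipe, G0s2 and Plin5 stay below 0 throughout, from -0.60 to -0.086 over these genes, and Mgll stays below 0 uncalled, while Plin1, Plin2, Plin4, Abhd5 and Cidec have points on both sides of 0.

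Per length, as TPM (counts per exon length, scaled to the same total in each library), the order of levels in control was Pnpla2 (2932 ± 61.6 TPM, SD, n = 2 libraries), G0s2 (2432 ± 177), Cidec (1820 ± 78.5), Lipe (1071 ± 20.1) and Plin1 (846 ± 26.9). A lower set followed, with Plin5 at 338 ± 40.3 TPM, Plin2 at 327 ± 11, Mgll at 283 ± 25 and Plin4 at 261 ± 11.1. Plin5 did not differ from Plin2, nor Mgll from Plin4, beyond the spread of the libraries. Abhd5 was lowest by far, at 47.3 ± 7.16 TPM. In fructose the first 5 kept their order, at 2361, 1730, 1542, 867 and 787 TPM, and Abhd5 stayed lowest at 46.7 TPM. Plin5 stood at 259 ± 21.1 TPM in fructose, beside Plin2 at 318 ± 67.4, Plin4 at 282 ± 7.9 and Mgll at 262 ± 3.62. Plin1, Plin2, Plin4 and Plin5 added up to 1772 TPM in control and 1645 TPM in fructose.

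The ratio of the counts of a pair of genes within a library does not depend on how libraries are scaled. The gene length and GC content trends were not removed from these ratios. Lipe stood at 0.732 and 0.692 counts per count of Pnpla2 in control and at 0.733 and 0.699 in fructose, so the groups overlapped (log2 difference 0.0077). G0s2 per Pnpla2 was 0.255 and 0.224 in control and 0.218 and 0.205 in fructose. Abhd5 per Pnpla2 was 0.0358 and 0.0280 in control and 0.0399 and 0.0382 in fructose. The inhibitor thus lay lower and the activator higher, relative to the lipase, in both fructose libraries, by -0.18 and 0.30 on the log2 scale. These sizes rest on single control libraries: without control replicate 1 they were -0.081 and 0.48, and without control replicate 2 they were -0.27 and 0.13. In the fit with both trends removed the order turned. There the log2 fold change was -0.087 for G0s2 and -0.24 for Abhd5, against -0.11 for Pnpla2. Mgll per Lipe was 0.211 and 0.246 in control and 0.264 and 0.258 in fructose, a log2 difference of 0.20 that was 0.088 without control replicate 1 and 0.31 without control replicate 2. Among the droplet genes, Plin4 per Plin1 was 0.386 and 0.380 in control, against 0.429 and 0.464 in fructose. Plin5 per Plin1 was 0.160 and 0.199 in control and 0.153 and 0.142 in fructose. The neighbours Plin4 and Plin5 thus lay in opposite directions relative to Plin1, by 0.22 and -0.28 on the log2 scale. For Plin5 to Plin1 the value was -0.43 without control replicate 1 and -0.12 without control replicate 2, and for Plin4 to Plin1 it was 0.16 to 0.28 without each library. Cidec per Plin1 was 0.814 and 0.905 in control and 0.767 and 0.798 in fructose (log2 difference -0.13, and -0.21 and -0.057 without control replicate 1 and 2). With both trends removed, the log2 fold change of Cidec (0.047) lay above that of Plin1 (-0.021). Plin2 per Plin1 overlapped between groups. With 2 libraries against 2, a two-sided exact permutation test cannot give a p below 0.333, and 6 of the 8 ratios were at that p (0.444 after Benjamini-Hochberg adjustment over the 8). The groups did not overlap for these 6, but neither did the levels of 65.1% of all tested genes. The share over other pairs of genes was not taken.

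**Figure D4:**
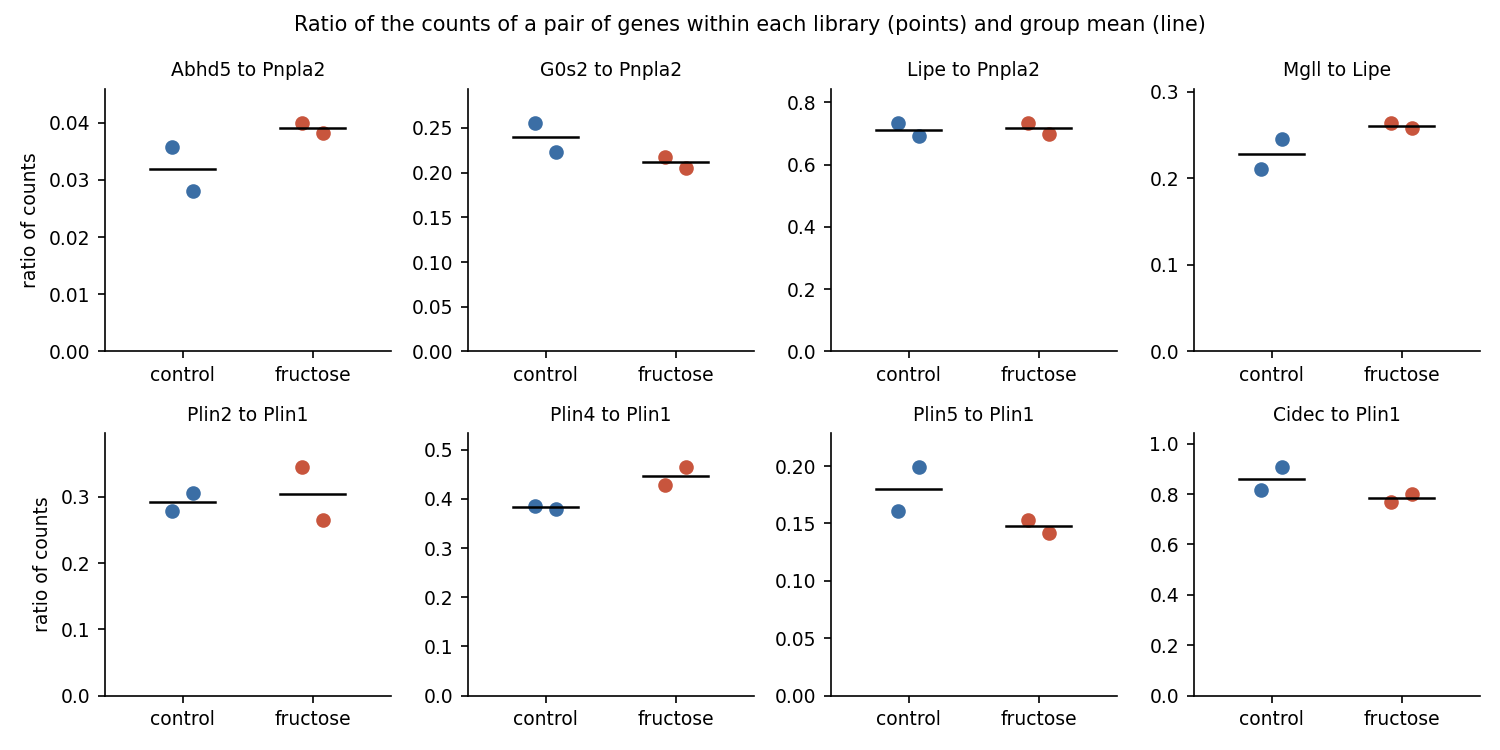
Ratio of the counts of a pair of genes (vertical axis, from 0) within each of the 2 control and 2 fructose libraries; points are libraries and the line is the group mean. The groups do not overlap for 6 ratios and overlap for Lipe to Pnpla2 and Plin2 to Plin1. The levels of 65.1% of all tested genes do not overlap either.

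Other droplet proteins and lipases (24 genes, 23 tested) were mostly not called. Of these, 3 were higher and 2 lower, where 15.5% and 10.7% of all tested genes were, and the median log2 fold change was -0.13. Pnpla3, a lipase-family gene that insulin and sugar induce in fat and liver, had 31.1 and 33.8 CPM in control and 75.0 and 59.1 CPM in fructose. It rose by 1.05 on the log2 scale (standard error 0.12, edgeR adjusted p = 0.00026), was called in all 16 alternative fits, and went in the direction opposite to its relative Pnpla2. Cidea, the brown-fat relative of Cidec, was at 3238 and 3344 CPM in control and 3312 and 3260 CPM in fructose (log2 fold change -0.0021, 95% interval -0.20 to 0.19). Bscl2 (seipin, which shapes new droplets) was lower by 0.31 on the log2 scale (edgeR adjusted p = 0.017), with 417 and 401 CPM in control and 335 and 326 CPM in fructose. Bscl2 remained called with both trends removed (-0.34, edgeR adjusted p = 0.020), whereas Aup1, a droplet protein of the ubiquitin system (-0.37, adjusted p = 0.0070), did not (-0.14, adjusted p = 0.30). Acsl3, which activates fatty acids on new droplets, was higher by 0.64 (edgeR adjusted p = 0.034) from 8.1 to 18.3 CPM over the 4 libraries. Acsl3 was called in 12 of 16 alternatives, and not without control replicate 2 (0.33, edgeR adjusted p = 0.13), without fructose replicate 2 (0.51, adjusted p = 0.097) or with the GC content or both trends removed (0.34 and 0.43, adjusted p = 0.22 and 0.14), while it was 1.05 without control replicate 1. Rab18, a droplet GTPase, was higher by 0.32 (edgeR adjusted p = 0.022), but it was called in 9 of 16 alternatives, not without control replicate 2 (adjusted p = 0.071) or fructose replicate 1 (0.12), and its sign turned with the GC content trend removed (-0.21). The calls of Bscl2 (13 of 16) and Aup1 (11 of 16) were lost without fructose replicate 2 (edgeR adjusted p = 0.14 and 0.065), and that of Bscl2 also without fructose replicate 1 (0.071). Ces1d (-0.15), Aifm2 (-0.19) and Fitm2 (-0.13), the other abundant genes of the list, were not called (edgeR adjusted p = 0.20, 0.10 and 0.41).

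Of the 23 genes of lipolytic signalling and product handling, 5 were higher and 3 lower, with a median log2 fold change of 0.077. The shares of all tested genes were 15.5% higher and 10.7% lower. Pde3b, the phosphodiesterase through which insulin lowers cAMP and so restrains lipolysis, had 53.2 and 47.0 CPM in control and 81.0 and 104 CPM in fructose. It rose by 0.89 on the log2 scale (standard error 0.12, edgeR adjusted p = 0.00058), and by 0.46 with both trends removed (edgeR adjusted p = 0.013). Insr, the insulin receptor, had 30.8 and 29.3 CPM in control and 49.9 and 54.4 CPM in fructose (log2 fold change 0.79, edgeR adjusted p = 0.00034; 0.30 with both trends removed, adjusted p = 0.045). Pde3b and Insr were called in all 16 alternatives. Protein kinase A acts on LIPE and the perilipins. Of its subunits, Prkar2b (0.50, edgeR adjusted p = 0.0050) and Prkacb (0.42, adjusted p = 0.011) were higher, and Prkaca, at 496 to 574 CPM, was not called (-0.18, adjusted p = 0.13). Gnas, the stimulatory G protein (-0.30, edgeR adjusted p = 0.041), Akt2, a kinase of insulin signalling (-0.35, adjusted p = 0.012), and Aqp7, the glycerol channel (-0.30, adjusted p = 0.032), were lower. With both trends removed Akt2 (-0.40, edgeR adjusted p = 0.013), Gnas (-0.50, adjusted p = 0.010) and Prkar2b (0.38, adjusted p = 0.021) were still called, and Aqp7 and Prkacb were not. Gnas was called in 9 of 16 alternatives, with a range of -0.65 to -0.12, and not with library size only (edgeR adjusted p = 0.068), the replicate block (0.086), the GC content trend removed (0.43) or without fructose replicate 1 (0.17) or 2 (0.23). Akt2 (13 of 16) and Prkacb (11 of 16) were not called without fructose replicate 2 (edgeR adjusted p = 0.11 and 0.089). Aqp7 (8 of 16) was called without control replicate 1 and lost without each of the other libraries (-0.19, -0.24 and -0.36, edgeR adjusted p = 0.12, 0.19 and 0.051). None of the 3 lower genes was called when scaled by adipocyte markers. Npr3, which clears natriuretic peptides, was higher by 0.72 (edgeR adjusted p = 0.021) at 4.44 to 9.07 CPM. Npr3 was called in 10 of 16 alternatives, and not with either or both trends removed (0.28 with both, edgeR adjusted p = 0.37) or without control replicate 2 (0.47, adjusted p = 0.10) or fructose replicate 2 (0.72, adjusted p = 0.054). Fabp4, which carries the fatty acids released, was not called (-0.13, edgeR adjusted p = 0.36).

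Of 12 transcriptional regulators known to act on these genes, 3 were higher and 4 lower (median -0.13 on the log2 scale). Again, 15.5% of all tested genes were higher and 10.7% lower. Srebf1, a regulator of lipid synthesis with the highest level of the list, had 1734 and 1437 CPM in control and 1190.0 and 1164 CPM in fructose (log2 fold change -0.43, edgeR adjusted p = 0.010). Srebf1 was called in 15 of 16 alternatives, with both trends removed among them (-0.36, edgeR adjusted p = 0.043), and lost its call with the GC content trend alone removed (-0.24, adjusted p = 0.12). Cebpa and Cebpb, which drive adipocyte differentiation, were lower by 0.38 and 0.44 on the log2 scale (edgeR adjusted p = 0.0093 and 0.011), and neither was called with both trends removed (-0.077 and -0.028, adjusted p = 0.64 and 0.89) or without fructose replicate 2 (-0.37 and -0.31, adjusted p = 0.056 and 0.092). Pparg, the master regulator of adipocytes, had 326 to 339 CPM in control and 296 to 317 CPM in fructose and was not called (-0.12, edgeR adjusted p = 0.32). Ppargc1a, the coactivator of PPARs, was higher by 1.16 (edgeR adjusted p = 0.00081) from 6.92 and 7.49 CPM to 14.2 and 17.9 CPM. Ppara, a fatty acid sensor, was higher by 0.76 (edgeR adjusted p = 0.00035), and like Ppargc1a was called in all 16 alternatives. Mlxipl (ChREBP, a sugar-sensing factor) was higher by 0.42 (edgeR adjusted p = 0.015), and by 0.48 with both trends removed (adjusted p = 0.012), and was not called without fructose replicate 1 (0.25, adjusted p = 0.15). Nr1h3 (LXR alpha) was lower by 0.29 (edgeR adjusted p = 0.020), and at -0.021 with both trends removed. Its call was lost without fructose replicate 1 (edgeR adjusted p = 0.072) and fructose replicate 2 (0.16).

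**Figure D5:**
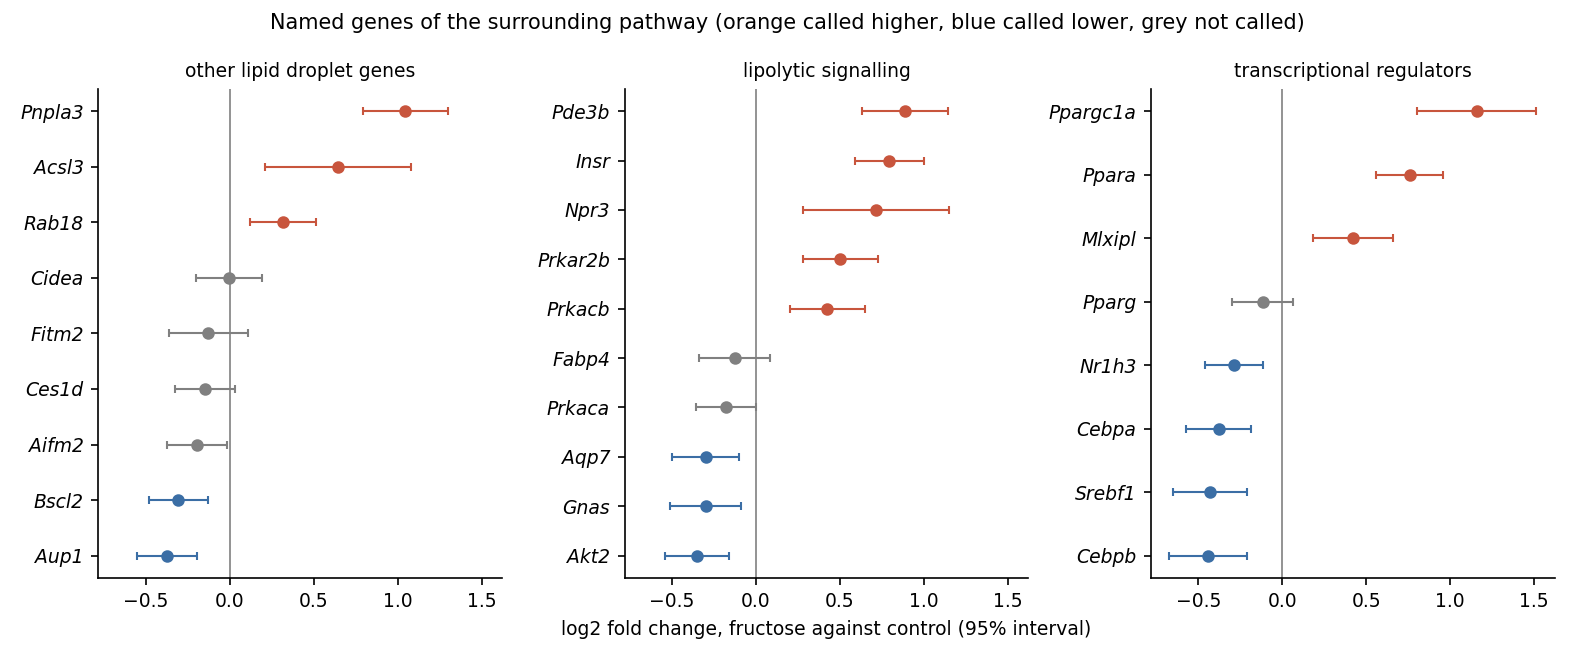
Log2 fold change (horizontal axis, fructose against control) with 95% interval of the named genes of 3 lists: other lipid droplet genes, lipolytic signalling and transcriptional regulators. Orange-red genes were called higher, blue lower and grey not called. Pnpla3, Pde3b, Insr, Ppara, Ppargc1a, Npr3 and Acsl3 lie farthest to the right, and the calls of Npr3 and Acsl3 were lost in some alternative fits.

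Profiles over the 4 libraries closest to Plin1, by Euclidean distance of centred log2 CPM among 7803 genes of at least 10 CPM, were those of Cd248, Sart3 and Pear1 (0.012 to 0.021). For Pnpla2 they were Arhgef40, Mpnd and Pwwp2b (0.0055 to 0.018).

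The summed levels of the skeletal muscle, erythroid, endothelial and adipocyte markers did not overlap between groups, and those of the other marker lists did. Of single tested genes, 65.1% did not overlap. Both fructose libraries lay above both control libraries for 11 of 11 skeletal muscle, 1 of 7 erythroid, 2 of 7 endothelial and 3 of 10 adipocyte markers. They lay below both for 0, 5, 4 and 5 of these markers, so the endothelial and adipocyte lists were mixed. Of all tested genes, edgeR called 15.5% higher and 10.7% lower. All 11 skeletal muscle markers were higher in fructose, with a summed level of 264 and 358 CPM in control and 837 and 627 CPM in fructose, led by Acta1 and Mylpf. Of 7 erythroid markers 5 were lower, with 19212 and 15300 CPM in control and 11771 and 12146 CPM in fructose, led by Hbb-bs and Hba-a2. The 10 adipocyte markers, led by Gpd1 and Fabp4, summed to 31599 and 32618 CPM in control and 30565 and 28053 CPM in fructose, with 2 higher and 3 lower. Scaling by the summed counts of these adipocyte markers rested largely on Gpd1, at 16496 to 21058 CPM over the 4 libraries. This scaling moved the median of all tested genes to 0.14. G0s2 (-0.39, edgeR adjusted p = 0.0041) and Plin5 (-0.28, adjusted p = 0.037) were then still lower, and Pnpla2, Lipe and Cidec were not called. The 9 brown-adipocyte markers summed to 13731 and 16434 CPM in control and 14956 and 13438 CPM in fructose, with 2 higher and 1 lower. Of 8 macrophage markers, led by Csf1r and Lyz2, 1 was higher and 2 lower, with 164 and 218 CPM in control and 162 and 172 CPM in fructose. Endothelial markers (7, led by Cdh5 and Pecam1, 0 higher and 1 lower) summed to 1564 to 1615 CPM in control and 1410 to 1490 CPM in fructose. Fibroblast and progenitor markers (8, led by Col3a1 and Col1a1, 1 higher and 0 lower) summed to 3409 to 3994 CPM over the 4 libraries. Smooth muscle markers (4 tested, led by Acta2 and Tagln) summed to 86.0 to 114 CPM and nerve markers (4 tested, led by Mbp and Sox10) to 27.5 to 33.7 CPM, with 0 called by edgeR in either list (at an unadjusted p-value under 0.05, 1 higher and 1 lower in smooth muscle and 0 in nerve). No marker was at 0 in all 4 libraries. The part of these cells in the differences of the 10 genes was not tested. Without mitochondrially encoded and haemoglobin genes, the same 5 of the 10 genes were called.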

How the data were processed

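RNA-seq of fetal BAT was analysed in 4 libraries, 2 control and 2 fructose. Per the paper's methods and the labels, the authors filtered reads with fastp, mapped them to mm10 with Bowtie2 2.0.0.5 and TopHat 2.0.0, assembled transcripts with StringTie 2.2.0, merged them with Cuffmerge and deposited raw read counts per gene, without normalization. The counting tool, strand and annotation release are not given in the sources used here. Symbols, positions, exon lengths and GC content came from GENCODE M21 (GRCm38), which matched 22255 of 22298 identifiers, and promoter windows from RefSeq (GRCm38.p6).

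Genes kept by filterByExpr (12888) were tested with edgeR 4.0.16 in R 4.3.3 (TMM, quasi-likelihood test, two-sided, Benjamini-Hochberg adjustment, no covariate), after a check on simulated counts. DESeq2 1.42.0, other scalings and filters, the study's thresholds (unadjusted p under 0.05, fold above 1.3), the replicate block, removal of length and GC trends (lowess, span 0.3) and leaving out each library were alternatives. The members and lists were chosen with earlier results of these data known. Named genes are the 10 members, the 5 with the highest level and all called genes of each pathway list, the 2 highest of each marker list and the 3 nearest profiles. Called genes of the marker lists are given as counts. Fabp4, Cidea, Pparg, Cebpa, Adrb3 and Ppargc1a are each in 2 lists. Depth gives each gene of the 10 at least 1911 counts per library.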

Additional observations from a re-analysis of the deposited data

How the results depend on the processing

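The count of the 10 genes called higher was 0 in the reported fit and in all alternatives. The count called lower, 5 in the reported fit, was 1 with the gene length trend, the GC content trend or both removed, 0 with both removed and the replicate block, 2 when scaled by adipocyte markers, 2 with the study's thresholds (G0s2 and Plin5, where 6.18% of all tested genes were called lower) and 1 to 5 without each library in turn, where a group left with 1 library is assumed to vary like the other. It was 4 or 5 in the rest. The median log2 fold change of the 10 genes was -0.079 with both trends removed, -0.078 with the replicate block added, -0.068 when scaled by adipocyte markers and -0.30 to -0.17 without each library. The cause of these shifts was not tested. For other droplet genes, 1 to 3 were higher without each library; those called lower were 4 with the length trend, the GC content trend or both removed, 4 with the block added, 0 when scaled by adipocyte markers, 1 with the study's thresholds and 0 to 5 without each library. For signalling genes, those called higher were 3 with the length trend removed, 8 when scaled by adipocyte markers and 3 to 8 without each library; those called lower were 1 with library size only, 0 when scaled by adipocyte markers, 0 with the study's thresholds and 0 to 4 without each library. Regulators called lower were 1 with the length trend removed, 0 after removal of the GC content trend, 1 after removal of both, 1 with the block added, 2 when scaled by adipocyte markers and 2 to 5 without each library. The sign turned for Abhd5 with library size only (0.013), when scaled by adipocyte markers (0.084) and without control replicate 1 (0.12; -0.20 to 0.12 over the libraries left out). It turned for Plin1 with the GC content trend removed (0.028), and for Plin4 with the length trend removed (-0.0045). For Plin2 it turned with both trends removed (0.064), with the block added (0.047), when scaled by adipocyte markers (0.058) and without fructose replicate 2 (0.15; -0.32 to 0.15 over the libraries left out). For Cidec it turned with both trends removed (0.047) and with the block added (0.048), and for Rab18 after removal of the GC content trend (-0.21) or of both (-0.22) and with the block added (-0.22). Without each library in turn, the count ratios kept their side except Lipe to Pnpla2 (-0.033 to 0.048) and Plin2 to Plin1 (-0.14 to 0.24). The ratios were not taken with the trends removed. In the fit with both removed, the log2 fold changes of G0s2 and Pnpla2, Abhd5 and Pnpla2, and Cidec and Plin1 changed order. Those of Mgll and Lipe, Plin4 and Plin1, and Plin5 and Plin1 kept theirs. With the replicate number as a block, edgeR called 4 of the 10 genes lower, and 2117 higher and 1441 lower over all tested genes. The difference between replicates 1 and 2 in control correlated with that in fructose at -0.027 across genes. With 2 libraries per group this value cannot show whether same-numbered libraries are paired. The reported fit did not pair them. Over all tested genes, where the reported fit called 2001 higher and 1379 lower, edgeR called 2242 and 857 with library size only, 1271 and 1135 with the length trend removed, 1091 and 1132 after removal of the GC content trend, 700 and 853 after removal of both, 934 and 1008 with the block added, 2690 and 342 when scaled by adipocyte markers, and 1266 to 2254 higher and 527 to 1685 lower without each library.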
